A study of Mus musculus with 7 samples.

Results

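The genes described here encode the enzymes that break down or make hydrogen sulfide. Ethe1, Sqor, Tst and Suox belong to the mitochondrial breakdown route, and Mpst, Cbs and Cth are the enzymes known for making the gas. They were picked by symbol and are 7 of the 43346 genes in the count table. Each matched 1 Ensembl identifier, and all 7 were among the 15810 genes with enough counts to be tested. The set was selected on the difference between the 2 grafts in these same tumors, since it was proposed with earlier results of that comparison known, and the study also lists Ethe1 among genes it drew from these tumors. The graft differences of the 7 genes are therefore given as descriptions, with values and errors and with no p. Counts of the 7 that pass a threshold are given beside the share of all genes, and nothing is read from them.

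RNA was measured in whole colon tumors from 7 C57BL6/J mice that had received a bone marrow (BM) graft and then developed colitis-associated cancer (CAC). Of these, 4 carried Dnmt3a+/Δ BM, in which 1 copy of the DNA methyltransferase gene Dnmt3a had been deleted by Mx1-Cre after poly(I:C) injection of the donor. The other 3 carried Dnmt3a+/+ BM from littermate donors given the same injections. All recipients were lethally irradiated wild-type CD45.1 congenic mice with intact Dnmt3a outside the graft, so the deletion is in graft-derived cells only. Tumors were started by azoxymethane, a carcinogen, injected 1 time at 10 mg/kg. Mice then drank 3% dextran sulfate sodium, which injures the colon lining, in 3 cycles of 1 week spaced by 2 weeks of rest. The labels put 8 weeks beside the recipients, while the methods give a younger age. The tumor names begin with the code BMT18 or BMT8, read here as 2 transplantation experiments. BMT18 supplied replicates 1 and 2 of both grafts, and BMT8 supplied Dnmt3a+/+ replicate 3 and Dnmt3a+/Δ replicates 3 and 4. Values are given below in replicate order, 1 to 3 for Dnmt3a+/+ BM and 1 to 4 for Dnmt3a+/Δ BM.

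Bacteria in the gut lumen release hydrogen sulfide, and the colon epithelium is exposed to more of it than most tissues. In mitochondria, sulfide:quinone oxidoreductase, encoded by Sqor, oxidizes sulfide to a persulfide and hands the electrons to ubiquinone. Ethe1 encodes the persulfide dioxygenase that turns the persulfide into sulfite, Tst encodes rhodanese, which joins a persulfide sulfur to sulfite as thiosulfate, and Suox encodes the molybdenum enzyme that oxidizes sulfite to sulfate. Cbs and Cth encode cystathionine beta-synthase and cystathionine gamma-lyase, the cytosolic transsulfuration enzymes that make cysteine from homocysteine and release sulfide in side reactions. Mpst encodes mercaptopyruvate sulfurtransferase, a relative of rhodanese that draws sulfur from a cysteine product. Sulfide that is not oxidized inhibits cytochrome c oxidase.

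Total counts ran from 38472738 to 64314999 per tumor. Dnmt3a itself was at 20.2 to 24.2 CPM (counts scaled to the size of each library, with TMM factors) with Dnmt3a+/+ BM and at 22.0 to 43.0 CPM with Dnmt3a+/Δ BM, which says little about a deletion confined to graft-derived cells when whole tumors are measured. A whole tumor holds epithelium, stroma and leukocytes, so a lower level can mean fewer cells of a type or less RNA per cell, and bulk counts cannot tell these apart. Dnmt3a+/Δ replicate 2 stood apart, with the lowest level of Ethe1, Sqor, Tst, Suox and Mpst among the 7 tumors and the highest summed fibroblast and endothelial markers, and values without it, chosen after seeing the data for lists and averages, are given for each gene of the set and for each list.

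Promoter windows were present in RefSeq (GRCm38.p6) for 5 of the 7 genes. To show 1 gene of each route, the exon-free stretch upstream of Ethe1 and of Cbs is printed here in transcript direction, trimmed where the window enters an exon of any GENCODE M21 gene. Ethe1 had the largest graft difference of the breakdown genes, and Cbs is the first enzyme of transsulfuration. The Ethe1 stretch lies at chr7:24587293-24587450 on the + strand, inside an intron of the opposite-strand gene Zfp575. The Cbs stretch lies at chr17:31637239-31637455 on the - strand. Capitals mark a GC box (GGGCGG) or a CCAAT box, read on both strands.
Ethe1: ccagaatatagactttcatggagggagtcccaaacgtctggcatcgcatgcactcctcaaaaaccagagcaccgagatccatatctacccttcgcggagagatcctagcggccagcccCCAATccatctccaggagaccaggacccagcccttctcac
Cbs: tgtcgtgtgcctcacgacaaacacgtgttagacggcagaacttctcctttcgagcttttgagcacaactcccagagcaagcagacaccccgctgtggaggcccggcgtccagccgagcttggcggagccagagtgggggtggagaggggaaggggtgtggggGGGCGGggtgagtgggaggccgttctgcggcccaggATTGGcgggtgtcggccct
The printed stretches hold 158 and 217 bases, and G and C make up 55.7% and 65.4% of them. In the full RefSeq windows of 300 bases, which run past the trimmed ends, Ethe1 had 1 GC box and 1 CCAAT box, and Cbs had 2 of each. A second Ethe1 start site, further into the gene, had 3 GC boxes and 0 CCAAT boxes in its window. Over all 32851 windows of 300 bases, 35.7% held a GC box and 37.4% a CCAAT box. A match in these letters is a description of the sequence and was not tied to the expression values.

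Ethe1 (ENSMUSG00000064254; GRCm38 chr7:24587543-24608925, + strand) was the member with the largest difference. Its level was 147, 159 and 136 CPM with Dnmt3a+/+ BM and 71.5, 52.0, 75.9 and 68.8 CPM with Dnmt3a+/Δ BM. All 4 Dnmt3a+/Δ tumors lay below all 3 Dnmt3a+/+ tumors, with a wide gap between the groups in both experiments. The means were 147 ± 11.9 CPM (SD, n = 3) and 67.0 ± 10.4 CPM (SD, n = 4), so the persulfide dioxygenase transcript stood at 45.5% of its Dnmt3a+/+ level. The log2 fold change was -1.14 (SE 0.17), ran from -1.20 to -1.0 when each tumor was left out in turn, and was -1.0 without Dnmt3a+/Δ replicate 2. Within BMT18 alone it was -1.30, and in BMT8 the log2 ratio of mean CPM was -0.91. The first exon of Ethe1 shares 99 bases with Zfp575 on the opposite strand, and Zfp575 reached at most 23 counts in any tumor against at least 2545 for Ethe1.

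Sqor (ENSMUSG00000005803; GRCm38 chr2:122765237-122809569, + strand), which catalyzes the entry step, was also lower in every Dnmt3a+/Δ tumor. It was at 414, 491 and 440 CPM with Dnmt3a+/+ BM and at 293, 181, 354 and 358 CPM with Dnmt3a+/Δ BM. The groups did not overlap, but the gap was narrow, and replicate 2 was far below the other Dnmt3a+/Δ tumors. The means were 448 ± 38.9 CPM (SD, n = 3) and 296 ± 82.3 CPM (SD, n = 4), a log2 fold change of -0.60 (SE 0.25). Without Dnmt3a+/Δ replicate 2 it was -0.39. BMT18 alone gave -0.93, and the log2 ratio in BMT8 was -0.31. Whether Sqor differs in this between the experiments was not tested.

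Tst (ENSMUSG00000044986; GRCm38 chr15:78399556-78405907, - strand) was at 128, 130 and 109 CPM with Dnmt3a+/+ BM and at 85.6, 69.6, 95.9 and 112 CPM with Dnmt3a+/Δ BM. The groups overlapped: Dnmt3a+/Δ replicate 4 was above Dnmt3a+/+ replicate 3, and both come from BMT8. The means were 122 ± 11.7 CPM (SD, n = 3) and 90.9 ± 18 CPM (SD, n = 4), with a log2 fold change of -0.43 (SE 0.19). Without Dnmt3a+/Δ replicate 2 it was -0.29. The rhodanese difference sat in BMT18, where it was -0.72 on the log2 scale, while in BMT8 the log2 ratio was -0.06. Whether the experiments differ in this was not tested.

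Suox (ENSMUSG00000049858; GRCm38 chr10:128669894-128674073, - strand), the last step, showed the smallest difference. It was at 35, 40.9 and 42.1 CPM with Dnmt3a+/+ BM and at 34.3, 18.7, 46.6 and 35.1 CPM with Dnmt3a+/Δ BM. The highest level of all 7 tumors was in a Dnmt3a+/Δ tumor, and the mean difference rested on replicate 2. The log2 fold change was -0.22 (SE 0.28) with it and 0.006 without it, and the means were 39.3 ± 3.79 CPM (SD, n = 3) and 33.7 ± 11.5 CPM (SD, n = 4).

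Mpst (ENSMUSG00000071711; GRCm38 chr15:78406416-78414013, + strand) lies head to head with Tst, with 508 bases between the 2 genes. Its level was 61.4, 63.8 and 68.5 CPM with Dnmt3a+/+ BM and 51.1, 35.7, 43.2 and 63.1 CPM with Dnmt3a+/Δ BM. Only Dnmt3a+/Δ replicate 4 reached the range of the Dnmt3a+/+ tumors, as it did for Tst. The means were 64.6 ± 3.60 CPM (SD, n = 3) and 48.3 ± 11.7 CPM (SD, n = 4), with a log2 fold change of -0.42 (SE 0.20), and of -0.27 without Dnmt3a+/Δ replicate 2.

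The transsulfuration genes were low and variable. Cbs (ENSMUSG00000024039; GRCm38 chr17:31608894-31637238, - strand) was at 13.4, 27.3 and 22.5 CPM with Dnmt3a+/+ BM and at 15.6, 22.9, 16.8 and 13.4 CPM with Dnmt3a+/Δ BM. The groups overlapped over nearly their whole range, with means of 21.1 ± 7.06 CPM (SD, n = 3) and 17.2 ± 4.05 CPM (SD, n = 4), and the log2 fold change of -0.30 (SE 0.29) was of the size of its error. Without Dnmt3a+/Δ replicate 2 it was -0.44. Cth (ENSMUSG00000028179; GRCm38 chr3:157894248-157925077, - strand) was at 26.4, 34.0 and 11.8 CPM with Dnmt3a+/+ BM and at 13.7, 19.5, 16.2 and 12.4 CPM with Dnmt3a+/Δ BM. Here the Dnmt3a+/+ tumors differed more from each other than the grafts did, and Dnmt3a+/+ replicate 3 had the lowest level of all. The means were 24.1 ± 11.3 CPM (SD, n = 3) and 15.5 ± 3.11 CPM (SD, n = 4). The log2 fold change of Cth was -0.64 (SE 0.35). It was -0.74 without Dnmt3a+/Δ replicate 2 and -0.31 without Dnmt3a+/+ replicate 2, the tumor with the highest level. It went in opposite directions in the 2 experiments, at -0.85 in BMT18 and at 0.28 as the log2 ratio in BMT8. That difference between experiments was not tested.

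**Figure D1:**
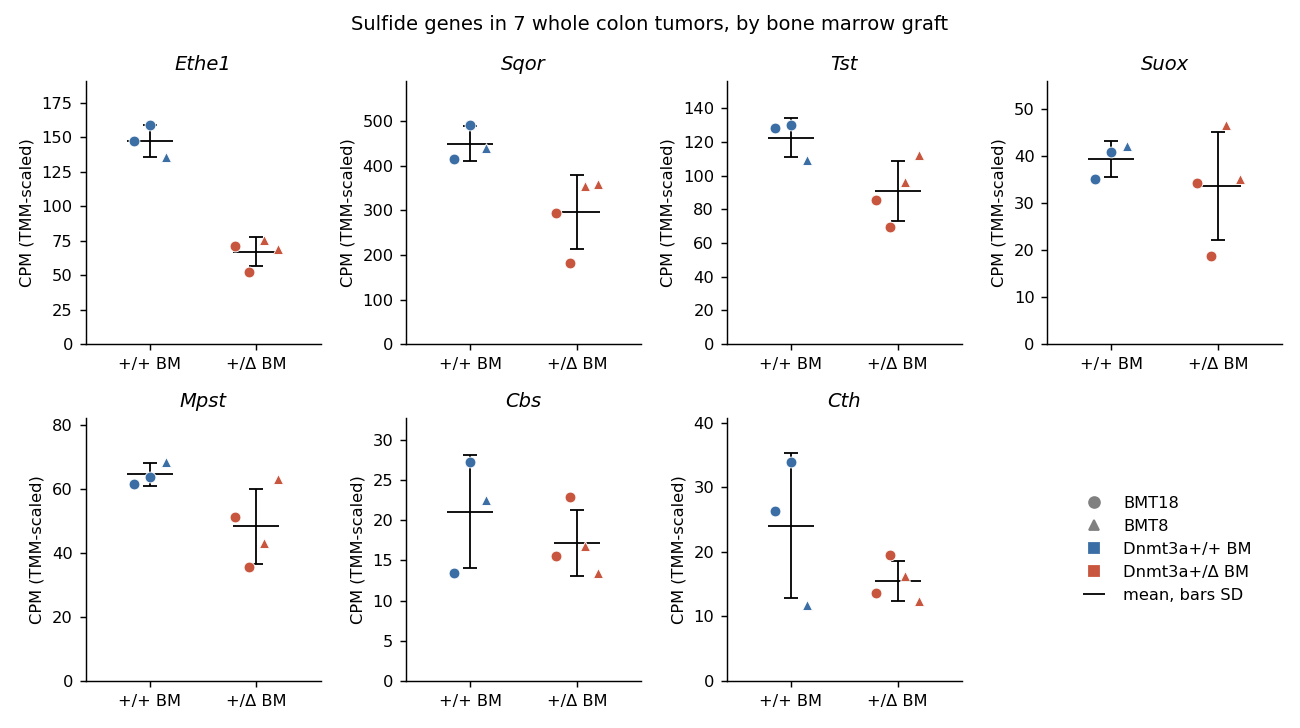
Level of each of the 7 genes (vertical axis, TMM-scaled CPM, from 0) in each tumor with Dnmt3a+/+ BM (blue, n = 3) and Dnmt3a+/Δ BM (red, n = 4); circles are BMT18, triangles BMT8, and horizontal lines and bars are the mean and SD. The Ethe1 groups are far apart at 147 and 67.0 CPM on average, the Sqor groups just separate, and the other 5 genes overlap.

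Across the 7 genes, the log2 fold change was below 0 for 7 of 7, where 49.8% of all genes tested were below 0, and the median was -0.43 beside 0.003 for all genes. Since the genes were selected on this contrast, nothing is read from these shares or from the counts and shares that follow. By edgeR's quasi-likelihood test 0 of the 7 passed an adjusted p under 0.05 with an absolute log2 fold change over 1, and neither did any of the 15810 genes (0%). At an unadjusted p under 0.05, 2 were lower with Dnmt3a+/Δ BM, Ethe1 and Sqor, beside 5.20% of all genes, and 0 were higher beside 5.83%. DESeq2 called 1 member lower, Ethe1, beside 0.436% of 15350 genes, and 0 higher beside 1.52%. All Dnmt3a+/Δ tumors lay below all Dnmt3a+/+ tumors for 2 of the 7, Ethe1 and Sqor, beside 6.32% of all genes. Of all genes, 1.87% had a lower log2 fold change than Ethe1, 8.55% than Sqor and 27.8% than Suox. Scaling by library size alone moved the median of all genes to 0.21, and under it Ethe1 was at -0.94, Sqor at -0.41 and Suox at -0.03.

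**Figure D2:**
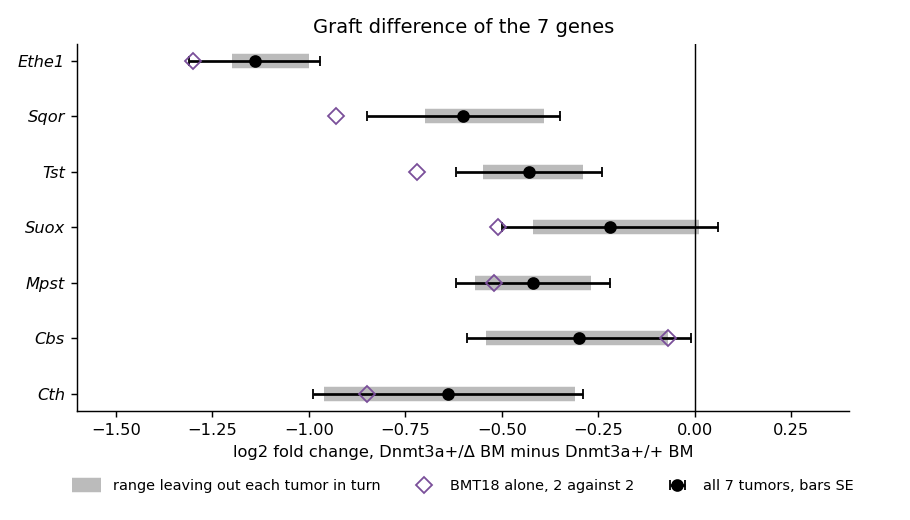
Log2 fold change of the 7 genes, Dnmt3a+/Δ BM minus Dnmt3a+/+ BM (horizontal axis), with black points and SE bars for all 7 tumors, gray bands for the range when each tumor is left out in turn, and open diamonds for BMT18 alone. Ethe1 stays between -1.20 and -1.0 in its band, while the band of Suox reaches 0.006.

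Ratios of counts within a tumor do not depend on how libraries are scaled, and they separated Ethe1 from the rest of its route. Ethe1 over Sqor was 0.355, 0.325 and 0.308 with Dnmt3a+/+ BM and 0.244, 0.287, 0.215 and 0.192 with Dnmt3a+/Δ BM. Ethe1 over Tst was 1.15, 1.22 and 1.25 against 0.836, 0.748, 0.791 and 0.612, and Ethe1 over Suox was 4.20, 3.90 and 3.22 against 2.09, 2.79, 1.63 and 1.96. In each of these ratios, and in Ethe1 over Mpst at 2.29 ± 0.274 (SD, n = 3) against 1.42 ± 0.273 (SD, n = 4), the groups did not overlap, so the Ethe1 transcript was lower relative to the enzymes before and after it as well. Relative to Cox4i1, which encodes a subunit of cytochrome c oxidase, Ethe1 was at 0.137 ± 0.0164 against 0.0965 ± 0.0139, again without overlap. Sqor over Cox4i1, in contrast, was 0.415 ± 0.0493 and 0.416 ± 0.0587. Relative to the epithelial genes Epcam, Krt8 and Krt20, the Ethe1 groups overlapped, at 0.0583 ± 0.0158 and 0.0363 ± 0.00725 for Epcam. For the head-to-head pair, Tst over Mpst was 2.08, 2.04 and 1.59 with Dnmt3a+/+ BM and 1.67, 1.95, 2.22 and 1.78 with Dnmt3a+/Δ BM. The means of 1.90 ± 0.273 (SD, n = 3) and 1.91 ± 0.237 (SD, n = 4) were nearly equal, but both Dnmt3a+/Δ tumors were below the Dnmt3a+/+ tumors in BMT18 and above the Dnmt3a+/+ tumor in BMT8, a difference between experiments that was not tested. These ratios reuse the contrast that chose the genes and carry no test.

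**Figure D3:**
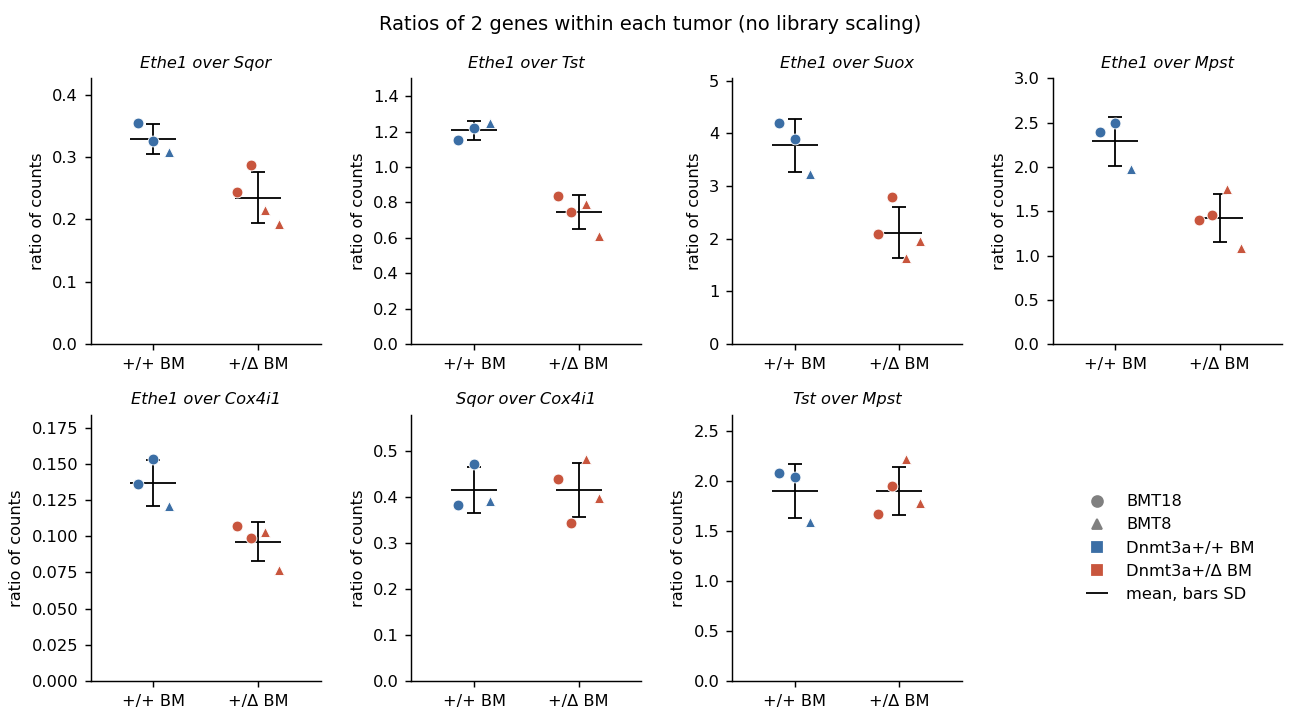
Ratio of the counts of 2 genes in each tumor (vertical axis, no unit, from 0) for 7 pairs, with Dnmt3a+/+ BM in blue, Dnmt3a+/Δ BM in red, circles for BMT18, triangles for BMT8, and lines and bars for mean and SD. The 5 ratios shown with Ethe1 on top are lower with Dnmt3a+/Δ BM without overlap. Ethe1 over Epcam, Krt8 and Krt20, where the groups overlapped, is not shown. Sqor over Cox4i1 and Tst over Mpst have near equal means, the latter with opposite directions in the 2 experiments.

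Per kilobase of the longest transcript, Sqor was the most abundant of the 7 genes in all 7 tumors. With Dnmt3a+/+ BM the mean level was 226 ± 19.6 CPM per kb for Sqor, 99.3 ± 8.05 for Ethe1, 46.4 ± 4.46 for Tst and 36.8 ± 2.05 for Mpst (SD, n = 3). Suox followed at 15.8 ± 1.52, Cth at 13.3 ± 6.23 and Cbs at 3.38 ± 1.13 CPM per kb. The early oxidation steps were thus above the final sulfite step, and the transsulfuration genes came last. With Dnmt3a+/Δ BM the means, in the same order of genes, were 149, 45.2, 34.5, 27.6, 13.5, 8.52 and 2.76 CPM per kb, and the order was the same. Each gene was above the next one in 7 of 7 tumors, except that Suox was above Cth in 4 of 7. Between Ethe1 and Tst, the smallest ratio of per-kb levels in a tumor was 1.09, and between Tst and Mpst it was 1.06. With merged exon length in place of the longest transcript, Suox was above Cth in 7 of 7 tumors, so that pair has no fixed order here. By that length Sqor stayed above Ethe1 in 7 of 7 tumors. Its lead was then small with Dnmt3a+/+ BM, at means of 110 and 99.3 CPM per kb, so its size depends on the length used.

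**Figure D4:**
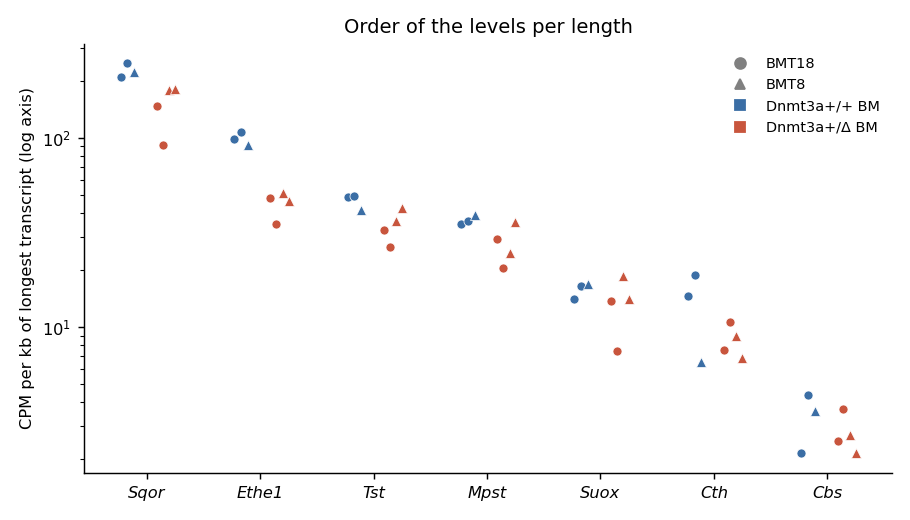
Level of each gene in each tumor in CPM per kb of the longest transcript (vertical axis, log scale), ordered by the Dnmt3a+/+ mean, with Dnmt3a+/+ BM in blue, Dnmt3a+/Δ BM in red, circles for BMT18 and triangles for BMT8. Levels run from 226 CPM per kb for Sqor to 3.38 for Cbs, and Suox and Cth overlap.

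To set breakdown beside production, log2 CPM was averaged over the 4 breakdown genes and over the 3 production genes in each tumor. The breakdown mean was 7.01, 7.16 and 7.01 with Dnmt3a+/+ BM and 6.47, 5.89, 6.71 and 6.63 with Dnmt3a+/Δ BM, a difference of -0.63. The production mean was 4.81, 5.29 and 4.72 against 4.48, 4.66, 4.51 and 4.46, a difference of -0.41. Both averages were lower in every Dnmt3a+/Δ tumor than in any Dnmt3a+/+ tumor, for production by a narrow gap, 4.66 against 4.72. By themselves, Mpst, Cbs and Cth each overlapped between the grafts, as did Tst and Suox. Both averages reuse the contrast that chose the genes, so nothing is read from this separation. Breakdown minus production was 2.20, 1.87 and 2.29 against 1.99, 1.23, 2.20 and 2.18, and here the groups overlapped, with a difference of -0.22 on the log2 scale. That difference came from Dnmt3a+/Δ replicate 2: without it the mean was 2.12 for both grafts, and the differences in breakdown and in production were -0.46 each. None of the 3 production genes had a higher mean with Dnmt3a+/Δ BM.

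The 2 transplantation experiments were not used to choose the genes, and that difference was tested with the graft in the model. Of the 7 genes, 0 were called between BMT8 and BMT18 by edgeR, 0 passed an unadjusted p under 0.05 and DESeq2 called 0. Across all genes edgeR called 0.00633%, and 19.4% passed an unadjusted p under 0.05. For Ethe1 the log2 fold change, BMT8 minus BMT18, was 0.07 (SE 0.17; edgeR adjusted p = 0.83), with means of 107 CPM in BMT18 and 93.4 CPM in BMT8, which hold different shares of the 2 grafts. The largest values were 0.44 for Suox (SE 0.25; edgeR adjusted p = 0.369) and -0.65 for Cth (SE 0.31; edgeR adjusted p = 0.303). Sqor was at 0.34 (SE 0.23; edgeR adjusted p = 0.430), and Tst, Mpst and Cbs lay between -0.15 and 0.23. The 1 gene called was Xist, the RNA that silences an X chromosome in females, named here after its values were seen. Xist was at most at 0.20 CPM in the 4 BMT18 tumors and at 175 to 264 CPM in the 3 BMT8 tumors, and the Y-linked gene Ddx3y was at 29.9 to 50.5 CPM in BMT18 and at most at 1.47 CPM in BMT8. Experiment and these sex-linked transcripts cannot be told apart, and both grafts are present in each experiment.

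The rest of the pathway was covered by 8 lists of 90 genes, of which 85 were tested. By edgeR 0 of the 85 were called (smallest edgeR adjusted p = 0.361). At an unadjusted p under 0.05, 9 were lower and 1 was higher with Dnmt3a+/Δ BM, beside 5.20% and 5.83% of all genes. DESeq2 called 1, Slc7a9, lower, beside 0.436% of 15350 genes. Of all genes, 6.32% had every Dnmt3a+/Δ tumor below every Dnmt3a+/+ tumor. These shares also stand beside the single lists and markers below. In all, 63 of the 85 were below 0 and 22 above, with a median log2 fold change of -0.17 beside 0.003 for all genes tested. Named genes follow a fixed rule, the 3 with the lowest unadjusted p in each list. With library size alone as the scale, when all genes moved to 0.21, the list medians of glutathione and of ubiquinone synthesis were at 0.13 and 0.00, and the others kept their sign.

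Among the partners that carry persulfide sulfur or electrons, 11 of 12 were below 0, with a median of -0.31 (-0.22 without Dnmt3a+/Δ replicate 2) and with 3 lower and 0 higher at an unadjusted p under 0.05. Tstd1, a small rhodanese-domain protein that makes glutathione persulfide, was at 73.8, 92.9 and 88.1 CPM against 30.5, 27.7, 64 and 60.4 CPM, without overlap. Its log2 fold change was -0.90 (SE 0.32; edgeR adjusted p = 0.407). Tstd3 was at -0.56 (SE 0.23; edgeR adjusted p = 0.435). Selenbp1, a methanethiol oxidase whose products include sulfide, was at 304, 401 and 35.1 CPM against 98.2, 45.0, 99.6 and 39.3 CPM. In Selenbp1 the Dnmt3a+/+ tumor of BMT8 was the lowest of all 7, so the groups overlapped despite a log2 fold change of -1.81 (SE 0.72; edgeR adjusted p = 0.433).

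Downstream of the route, the sulfate list, which covers activation and transport of sulfate, was below 0 in 7 of 7 tested genes with a median of -0.30 and 0 of them at an unadjusted p under 0.05. Without Dnmt3a+/Δ replicate 2, 6 of 7 were below 0 and the median was -0.21. Papss1, which makes the activated sulfate donor, was at 188, 213 and 178 CPM against 183, 70.8, 151 and 123 CPM, and its log2 fold change of -0.55 (SE 0.30; edgeR adjusted p = 0.531) shrank to -0.31 without that tumor. The sulfate transporter Slc26a2 was at -0.72 (SE 0.42; edgeR adjusted p = 0.557), and Slc35b2, which carries the sulfate donor into the Golgi, at -0.30 (SE 0.17; edgeR adjusted p = 0.548). Of the 4 molybdenum cofactor genes that Suox depends on, 3 were below 0 and 0 passed an unadjusted p under 0.05. Mocs1, Mocs3 and Mocs2 stood at -0.45, -0.39 and -0.10 with all tumors and at -0.24, -0.28 and 0.02 without Dnmt3a+/Δ replicate 2, when 2 of 4 were below 0 and the list median went from -0.24 to -0.11.

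In ubiquinone synthesis, the pathway behind the electron acceptor of Sqor, 12 of 13 genes were below 0, with a median of -0.22 (-0.20 without Dnmt3a+/Δ replicate 2) and 1 at an unadjusted p under 0.05. Coq9, a lipid-binding protein of that pathway, was at 67.6, 82.2 and 64 CPM against 51.7, 41.8, 52.2 and 60.0 CPM, without overlap (log2 fold change -0.47, SE 0.16; edgeR adjusted p = 0.406). Pdss1 and Coq6 were at -0.46 and -0.35 (edgeR adjusted p = 0.502 and 0.509).

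For cytochrome c oxidase, the enzyme that sulfide inhibits, the subunit genes were not uniform. Of 13 subunit genes 11 were below 0, with a median of -0.50 (-0.34 without Dnmt3a+/Δ replicate 2), 4 of them at an unadjusted p under 0.05 and 0 called. Cox8a was at -0.58 (SE 0.17; edgeR adjusted p = 0.377), Cox6a1 at -0.63 (SE 0.21; edgeR adjusted p = 0.403) and Cox4i1 at -0.62 (SE 0.21; edgeR adjusted p = 0.406), all encoded in the nucleus. The Cox4i1 level was 1080, 1040 and 1120 CPM against 666, 527, 734 and 901 CPM. The 3 mitochondrially encoded subunits, named after their values were seen, were at -0.05 (SE 0.57) for mt-Co1, 0.04 (SE 0.60) for mt-Co2 and 0.20 (SE 0.61) for mt-Co3, with edgeR adjusted p of 0.986, 0.991 and 0.937. They hold most of the reads of the list, and its summed level overlapped, at 15800 to 33800 CPM and 11500 to 40400 CPM. All 3 were highest in Dnmt3a+/Δ replicate 4, where mt-Co3 was at 4130 CPM beside 907, 857 and 1080 CPM in Dnmt3a+/Δ replicates 1 to 3. The difference between nuclear and mitochondrial subunits was not tested.

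Upstream, where sulfur enters, the list medians lay near 0. In the methionine cycle 7 of 10 tested genes were above 0 with a median of 0.18, but 5 of 10 with a median of 0.06 without Dnmt3a+/Δ replicate 2. Mtap, which salvages methionine, was at 0.76 (SE 0.26; edgeR adjusted p = 0.406), Gnmt at 0.69 (SE 0.43; edgeR adjusted p = 0.577) and Ahcyl2 at -0.64 (SE 0.33; edgeR adjusted p = 0.511). Cysteine supply had 7 of 11 tested genes above 0 and a median of 0.10, and of 0.05 without that tumor. Slc7a9, the light chain of the cystine transporter of absorptive epithelium, was at 7.41, 6.97 and 1.68 CPM against 1.22, 1.18, 1.81 and 1.38 CPM. The log2 fold change of Slc7a9 was -1.94 (SE 0.52; edgeR adjusted p = 0.361), and the Dnmt3a+/+ tumor of BMT8 lay inside the Dnmt3a+/Δ range. In the same list Got1 was at -0.32 (edgeR adjusted p = 0.534) and the amino acid transporter subunit Slc3a2 at 0.32 (edgeR adjusted p = 0.550). Glutathione genes had a median of -0.09 (-0.08 without Dnmt3a+/Δ replicate 2), with 12 of 15 below 0 and 0 at an unadjusted p under 0.05. Gss, glutathione synthetase, was at -0.56 (SE 0.31; edgeR adjusted p = 0.536), Chac2 at -0.25 (edgeR adjusted p = 0.727) and Ggt1, in the opposite direction, at 1.08 (SE 0.78; edgeR adjusted p = 0.633). Mat1a, Bhmt, Bhmt2, Dao and Slc26a1 had too few counts to be tested.

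**Figure D5:**
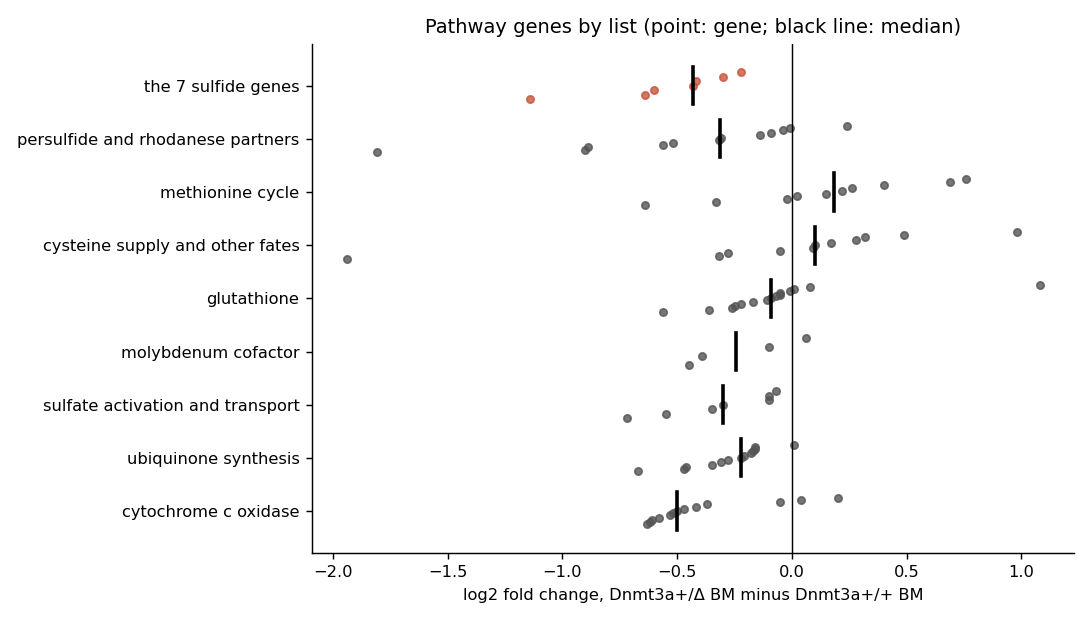
Log2 fold change of each tested gene, Dnmt3a+/Δ BM minus Dnmt3a+/+ BM (horizontal axis), for the 7 sulfide genes in red and the 8 lists around them in gray, with a black line at each median. Medians run from -0.50 for cytochrome c oxidase to 0.18 for the methionine cycle, with the 7 sulfide genes at -0.43.

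Markers of cell types were set beside these levels. By edgeR 0 of them were called, as were 0 of all 15810 genes tested, and DESeq2 called 3, all endothelial. The summed level of 7 epithelial markers was 15000 to 31800 CPM with Dnmt3a+/+ BM and 9040 to 20400 CPM with Dnmt3a+/Δ BM, so the groups overlapped. All 7 were below 0, 1 of them at an unadjusted p under 0.05, with a median log2 fold change of -0.58 (-0.45 without Dnmt3a+/Δ replicate 2). The most abundant, Krt8 and Krt19, were at -0.78 and -0.72 (edgeR adjusted p = 0.523 and 0.590). For 9 markers of mature colonocytes, the absorptive cells at the colon surface, the sums were 14100 to 17900 CPM and 3790 to 10000 CPM, without overlap, and 8 of 9 were below 0 with a median of -0.94 (-0.82 without that tumor). Lypd8, a secreted antibacterial protein of these cells that made up most of that sum, was at -1.15 (SE 0.38; edgeR adjusted p = 0.393), and Krt20 was at -0.58 (SE 0.27; edgeR adjusted p = 0.473). At an unadjusted p under 0.05, 3 of the 9 colonocyte markers were lower and 1 was higher. The higher one was Slc9a3, named after its values were seen, at 3.02 (SE 1.27, edgeR adjusted p = 0.444). It was at 1.57 without Dnmt3a+/Δ replicate 2, the tumor with its highest level, 74.7 CPM. Of 6 goblet markers 6 were below 0, with overlapping sums of 782 to 3250 CPM and 357 to 1930 CPM and a median of -0.82 (-0.93 without that tumor), while the mucin Muc2 was at -0.03 and Fcgbp at -0.96. Of 6 stem and progenitor markers 6 were above 0, with overlapping sums of 250 to 444 CPM and 367 to 477 CPM and a median of 0.62 (0.51 without that tumor), with Sox9 at 0.55 and Cd44 at 0.03.

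Endothelial markers differed in the other direction. The 6 endothelial markers summed to 11.7 to 21 CPM with Dnmt3a+/+ BM and to 25.3 to 110 CPM with Dnmt3a+/Δ BM, without overlap, with a median of 1.81 (1.30 without Dnmt3a+/Δ replicate 2), all 6 above 0 and 4 at an unadjusted p under 0.05. Cdh5 was at 2.59 (SE 0.89; edgeR adjusted p = 0.406) and Pecam1 at 1.56 (SE 0.46; edgeR adjusted p = 0.377). DESeq2 called 3 of the 6 endothelial markers higher, beside 1.52% of 15350 genes. The share of all genes with every Dnmt3a+/Δ tumor above every Dnmt3a+/+ tumor was not counted. The 6 fibroblast markers summed to 149 to 294 CPM and 223 to 993 CPM, with overlap, and had a median of 1.09, and of 0.24 without that replicate, with Col3a1 at 0.79 and Dcn at 0.50. Leukocyte markers summed to 50.5 to 108 CPM and 44.2 to 203 CPM, with a median of 0.36, and of -0.09 without that replicate, with Lcp1 at 0.64 and Coro1a at -0.12. Smooth muscle markers summed to 22.6 to 909 CPM and 243 to 1170 CPM, lowest in Dnmt3a+/+ replicate 3, with a median of 0.08 (0.30 without Dnmt3a+/Δ replicate 2), with Myh11 at 0.20 and Tagln at -0.19. No marker of any list was at 0 in all tumors, and the part of cell makeup in the levels of the 7 genes was not tested.

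Over the 7 tumors, the genes whose log2 CPM followed Ethe1 most closely were sought among 15803 tested genes. They were Tspan1 (Pearson r = 0.993, Spearman rho = 1.0), Mlx (0.989, 0.893), Fuca1 (0.983, 0.964), Sdf4 (0.981, 0.857) and Ceacam20 (0.981, 1.0). Tspan1, a tetraspanin, was at 1230, 1440 and 1120 CPM against 625, 394, 687 and 587 CPM, with a gap between grafts like that of Ethe1. Ceacam20 lies on chromosome 7, as Ethe1 does. Closest to Sqor were Dok4 (r = 0.994, rho = 0.964), Arhgap27os2 (0.992, 0.964), 1700096K18Rik (0.991, 0.964), Fbxo4 (0.990, 0.929) and Tspan15 (0.990, 0.929). Dok4 was at 179, 214 and 193 CPM against 104, 63.7, 152 and 141 CPM, lowest in Dnmt3a+/Δ replicate 2 as Sqor was. These are the highest values of many, over tumors that share the graft grouping and the scaling, and they carry no p.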

How the data were processed

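The deposited values were estimated counts per gene for whole tumors, given as whole numbers with no normalization, 1 column per tumor. Per the labels and methods, the authors selected poly(A) RNA and trimmed the reads (Trimmomatic) before alignment by STAR 2.7.3a to build 38 of the mouse genome, and RSEM v1.2.31 quantified the genes. Their gene annotation is not given in the sources used here. Symbols and positions were taken from GENCODE M21 for 42462 of 43346 identifiers. Identifiers without a symbol held 0.104% of counts. RSEM divides reads shared between genes. The library kit was directional, and the strand setting of the counting is not given in the sources used here.

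Group differences came from edgeR 4.0.16 under R 4.3.3 (filterByExpr, TMM, quasi-likelihood test, no covariate, Benjamini-Hochberg over 15810 genes). The call rule, after the study's methods, asked for both an adjusted p below 0.05 and a log2 fold change beyond 1 in either direction. CPM used TMM library sizes, and log2 CPM a prior count of 2. The experiment was tested with the graft as covariate. Labels name separate tumors, so p-values measure the spread between these tumors. The experiments were inferred from the codes BMT18 and BMT8 in the tumor names. The closest pair, Dnmt3a+/Δ replicate 1 and Dnmt3a+/+ replicate 1, reached a Spearman correlation of 0.984 over genes but differed beyond sampling noise (chi-square per degree of freedom 90.8).

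The 7 genes, the lists and the tests were chosen with earlier results of these data known. Named were the 7 genes, the 3 genes of each pathway list with the lowest unadjusted p and any called, the 5 most correlated with Ethe1 and with Sqor, the 2 most abundant markers of each cell type, and Dnmt3a. Alternatives were DESeq2 1.42.0, its size factors, library size alone, no filter, robust dispersion, the adjusted p alone, the experiment as covariate, the replicate number as block, each tumor left out, and BMT18 alone. On data simulated for the graft comparison over 15539 genes, edgeR recovered 116 of 192 changed genes with 7 false calls and DESeq2 159 with 58. For the experiment comparison over 15516 genes, edgeR recovered 126 of 194 with 8 false calls and DESeq2 162 with 91. The planted log2 fold changes were 2 or 3 in either direction, larger than any graft difference of the 7 genes. The recovery therefore does not apply to differences of their size. Protein sequences were not used here.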

Additional observations from a re-analysis of the deposited data

Results flagged for a closer look

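In 5 genes, 1 of the 4 Dnmt3a+/Δ tumors was far from the other 3, by Dixon's critical value for its gap to the nearest of them over the whole range of the group. Dnmt3a+/Δ replicate 4 was high for Tstd3 at 10.7 CPM and for Ggt1, a glutathione-degrading enzyme, at 9.89 CPM, and low for Ahcyl2 at 40.4 CPM. Dnmt3a+/Δ replicate 2 was low for Mlx at 62.4 CPM and for Sdf4 at 211 CPM. Of 90 values examined, 5 stood out in this way, and chance gives about 4.5. The mitochondrially encoded subunit mt-Co3, high in Dnmt3a+/Δ replicate 4, was not among the values examined. None of the 7 sulfide genes passed that limit, although Dnmt3a+/Δ replicate 2 was well below the others for Sqor and Suox.

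For Cth, the log2 ratio of mean CPM was 0.28 in BMT8, where both Dnmt3a+/Δ tumors were above the single Dnmt3a+/+ tumor, while in BMT18 both Dnmt3a+/Δ tumors were below both Dnmt3a+/+ tumors. The difference between the experiments was not tested.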

How the results depend on the processing

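The number of the 7 genes called, 0 by edgeR, became 1 with DESeq2 and 1 with DESeq2 in BMT18 alone, the latter chosen after seeing the data, as was DESeq2 with each tumor left out. Over both tools the range was 0 to 1 when each tumor was left out in turn, and the gene was Ethe1 in all 7 such DESeq2 fits. These fits share most of their tumors and reuse the contrast that chose the gene, so nothing is read from their number. Among pathway genes the count of 0 became 1 with DESeq2. Of 161 values of the 7 genes under the alternatives, 160 were below 0. Suox reversed to 0.006 without Dnmt3a+/Δ replicate 2, and ran from -0.42 to 0.006 when each tumor was left out. Tst moved from -0.43 to -0.72 in BMT18 alone (-0.71 with DESeq2), for which the cause was not tested. Over all alternatives Ethe1 ran from -1.30 to -0.94, Sqor from -0.93 to -0.39, Mpst from -0.59 to -0.23, Cbs from -0.54 to -0.048 and Cth from -0.96 to -0.28.

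Replicate numbers were not taken as pairs. The deviations of same-numbered tumors correlated at 0.568, 0.0711 and -0.0377, and those of different-numbered tumors at -0.466 to 0.489. Only the first same-numbered pair lay above that range. Dnmt3a+/Δ replicate 4 has no partner, so it adds nothing to a graft estimate within blocks. With the number as a replicate block, 0 of the 7 genes were called, and 1885 genes in place of 1744 passed an unadjusted p under 0.05. With the replicate block Ethe1 was at -1.16, Sqor at -0.75, Tst at -0.56, Suox at -0.33, Mpst at -0.59, Cbs at -0.15 and Cth at -0.44. With 4 tumors against 3, 1 tumor weighs heavily, and Cbs and Cth, with as few as 496 and 386 counts in a tumor, varied between tumors far beyond counting error.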
